A study of Mus musculus with 84 samples.

Results

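Stromal progenitors and mural cells are the non-adipocyte mesenchymal cells of fat. This account covers 35 genes that are commonly used to mark them, 24 for progenitors and 11 for mural cells, out of 21851 protein-coding genes of the mouse. The genes were named as lineage markers, with earlier results of these data known. The progenitor genes were Pdgfra, Pdgfrb, Dpp4, Pi16, Dcn, Lum, Mfap5, Fbn1, Cd34, Ly6a, Thy1, Fn1, Postn, Sparc, Lox, Loxl1, Loxl2, Cd248, Fap, Twist1, Twist2, Prrx1, Gas6 and Igfbp4. The mural genes were Acta2, Tagln, Myh11, Cnn1, Rgs5, Cspg4, Notch3, Mcam, Abcc9, Kcnj8 and Des.

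Histone marks were profiled by CUT&Tag, a method that tags DNA next to an antibody-bound mark, in nuclei of epididymal fat labelled as adipocytes, in order to ask whether chromatin changes of obesity remain after weight loss. All groups came from AdipoERCre x NuTRAP animals on a background given as C576BL6, in which a tamoxifen-inducible Cre driven in adipocytes switches on the nuclear label, so that the selection of nuclei is only as pure as the recombination and the pull-down of labelled nuclei on streptavidin beads. In the 12-week cohort, C animals were 18 weeks old and fed chow, H animals were of the same age and had 12 weeks of high-fat diet, HC animals had the same diet and then 8 weeks of chow and were 26 weeks old, and CC_s animals were their chow-fed controls. In the 25-week cohort, HH animals were 31 weeks old after 25 weeks of high-fat diet and CC_l animals were their chow-fed controls, while HHC animals had 8 further weeks of chow and were 39 weeks old, with CCC animals as controls. H and HH are called obese below and HC and HHC weight-loss groups. The 84 libraries held 21 for H3K4me3, 21 for H3K27ac, 22 for H3K4me1 and 20 for H3K27me3, with 2 or 3 animals per group and mark. Groups were taken from the sample titles, with which the treatment field of 4 H3K4me3 libraries (of CC_l, HH and CCC) disagrees.

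Adipocyte progenitors are fibroblast-like cells that carry PDGF receptors, secrete collagen-rich matrix and can give rise to new adipocytes. Mural cells are the pericytes and smooth muscle cells that wrap vessels and contract. H3K4me3 lies at promoters open to transcription. H3K27ac sits on regulatory DNA in use, H3K4me1 is typical of enhancers and of the flanks of promoters, and H3K27me3 is laid down by polycomb repressive complexes at silenced genes. In a mature adipocyte, genes of these other lineages are mostly off, and polycomb is a well-known keeper of such genes.

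Each promoter was the set of windows of 2000 bp on either side of every annotated start site of a gene (4001 to 8002 bp in the 35 genes), and it was called marked in a library when a peak overlapped it by at least 1 bp. A library had from 11249 to 46397 peaks, whose median width ran from 332 to 2658 bp, and the read depth behind them was unknown. Libraries of the 25-week cohort had more and wider peaks, and cohort and library preparation cannot be told apart. A promoter without a peak is one that did not reach the top of the signal of that library, and is not shown to lack the mark. The adipocyte label was checked with 15 adipocyte markers, of which between 11 and 15 had an H3K4me3 peak in each library. For H3K27ac the count was also 11 to 15, but for H3K4me1 it was 3 to 15. The lowest H3K4me1 counts were 3 in HC replicate 3 and 6 in HH replicate 1. Of 12 macrophage markers between 0 and 11, and of 12 endothelial markers between 0 and 11, had an H3K4me3 peak too. Nuclei of other cells may thus add to the peaks. Fewer nuclei of a cell type and less mark per nucleus cannot be told apart in these bulk libraries.

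Promoter sequence from RefSeq (GRCm38.p6) was given for 21 of the 35 genes. A set of 4 stretches is shown, each the 250 bases before the start site from 5′ to 3′. They were chosen among genes named below whose 250 bases hold no annotated transcript. They are those of Dpp4 (chr2:62412232-62412481, minus strand) and Igfbp4 (chr11:99040994-99041243, plus strand) among the progenitor genes, and those of Rgs5 (chr1:169655251-169655500, plus strand) and Des (chr1:75360042-75360291, plus strand) among the mural genes. Capitals mark CG dinucleotides, the sites of DNA methylation that are dense in promoters of CpG-island type.
Dpp4: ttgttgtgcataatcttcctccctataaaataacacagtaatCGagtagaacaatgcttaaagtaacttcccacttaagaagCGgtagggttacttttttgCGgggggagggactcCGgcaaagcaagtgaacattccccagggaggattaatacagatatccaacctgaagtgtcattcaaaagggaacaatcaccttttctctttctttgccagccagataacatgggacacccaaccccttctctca
Igfbp4: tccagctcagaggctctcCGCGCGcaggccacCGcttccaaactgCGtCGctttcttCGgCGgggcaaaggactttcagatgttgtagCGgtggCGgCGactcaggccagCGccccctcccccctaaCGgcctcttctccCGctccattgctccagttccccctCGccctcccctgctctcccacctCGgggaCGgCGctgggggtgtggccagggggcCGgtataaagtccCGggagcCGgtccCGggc
Rgs5: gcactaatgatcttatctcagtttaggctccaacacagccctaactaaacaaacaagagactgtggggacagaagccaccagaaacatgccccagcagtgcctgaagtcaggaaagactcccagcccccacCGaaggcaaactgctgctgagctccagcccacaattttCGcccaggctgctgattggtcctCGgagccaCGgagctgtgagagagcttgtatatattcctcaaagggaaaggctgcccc
Des: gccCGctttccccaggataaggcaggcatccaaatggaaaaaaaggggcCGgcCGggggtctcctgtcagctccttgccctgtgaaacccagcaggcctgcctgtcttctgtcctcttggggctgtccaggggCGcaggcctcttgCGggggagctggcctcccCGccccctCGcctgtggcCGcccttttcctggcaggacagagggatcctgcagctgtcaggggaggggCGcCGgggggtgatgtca
Igfbp4 held 22 CG dinucleotides and Des held 10, against a median of 6 over the 32851 promoters in the table. Dpp4 and Rgs5 held 4 each.

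The first question was which of these genes carried which mark, whatever the diet. An average library had an H3K4me3 peak at 65.1% ± 21.2 (SD, n = 21) of the progenitor genes and at 47.2% ± 20.7 (SD, n = 21) of the mural genes, beside 57.7% ± 6.69 (SD, n = 21) of all genes. For H3K27ac the shares were 36.9% ± 19.4 (SD, n = 21), 35.1% ± 12.3 (SD, n = 21) and 40.7% ± 11.5 (SD, n = 21). H3K27me3 was present at 44.8% ± 13.3 (SD, n = 20) of the progenitor genes and 49.1% ± 20.1 (SD, n = 20) of the mural genes, while over all genes the share was 18.4% ± 4.48 (SD, n = 20). H3K4me1 stood at 38.3% ± 20.3 (SD, n = 22), 43.8% ± 19 (SD, n = 22) and 24.0% ± 13.8 (SD, n = 22). Both lists thus had a higher mean share than all genes for H3K27me3 and H3K4me1. The genes were picked by name and no test of the lists was made.

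**Figure D1:**
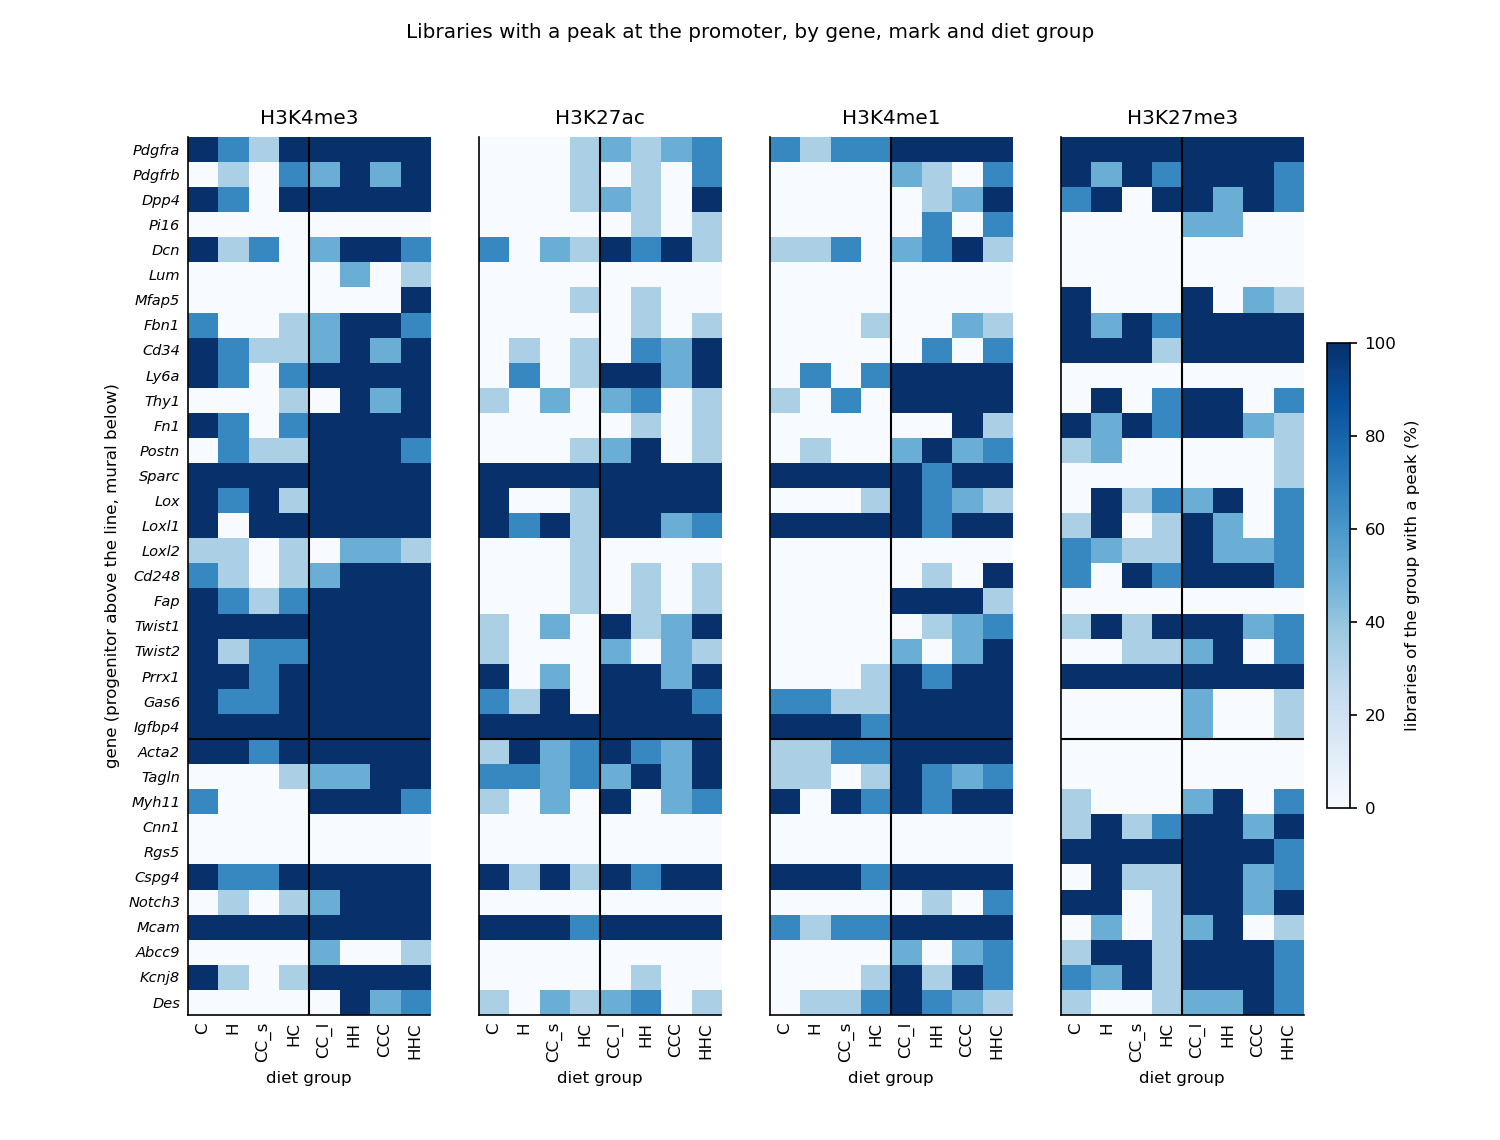
Share of the libraries of each diet group (columns, 2 or 3 libraries each) with a peak at the promoter of each of the 35 genes (rows), for the 4 marks, from 0% (white) to 100% (dark blue). Prrx1 and Pdgfra carried H3K27me3 in every column, Rgs5 and Cnn1 carried no mark other than H3K27me3, and Sparc and Igfbp4 carried H3K4me3 and H3K27ac in every column.

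Among the receptors and surface proteins of progenitors, Pdgfra (chr5:75152292-75198215), the PDGF receptor that defines the lineage, had H3K27me3 in 20 of 20 libraries and H3K4me3 in 18 of 21. Its sister receptor Pdgfrb, which mural cells also use, had H3K27me3 in 17 of 20 and H3K4me3 in 10 of 21. Dpp4 (chr2:62330073-62412231), a surface peptidase of early progenitors, had H3K4me3 in 17 of 21 libraries, with H3K27me3 present in 14 of 20, and Cd34, a sialomucin of progenitors and vessels, in 14 of 21 and 18 of 20. Ly6a (chr15:74994877-74998031), which encodes the stem-cell antigen Sca-1, had H3K4me3 in 16 of 21 libraries, with H3K27me3 present in 0 of 20. It lies in a cluster of related Ly6 genes, between which short reads can be shared, so its values are uncertain. Fap, a serine protease of activated fibroblasts, also had no H3K27me3 peak, with H3K4me3 in 17 of 21. Cd248, the endosialin of stromal cells, had H3K4me3 in 12 of 21 libraries, with H3K27me3 present in 15 of 20, and Thy1, a glycoprotein of fibroblasts and T cells, in 7 of 21 and 10 of 20. Pi16, a marker of early fibroblasts, had no H3K4me3 peak and H3K27me3 in 2 of 20.

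The matrix genes fell into differing patterns. Sparc (chr11:55394500-55423183), a collagen-binding matrix protein that adipocytes also make, had H3K4me3 and H3K27ac in 21 of 21 libraries and H3K27me3 in 1 of 20. The median widest H3K4me3 peak at Sparc was 6780 bp, against a mean of 2212 bp ± 754 (SD, n = 21) for the median over all marked genes. Fn1, the fibronectin gene, had H3K4me3 in 16 of 21 libraries, with H3K27me3 present in 15 of 20. Fbn1, which encodes the microfibril protein fibrillin, had H3K4me3 in 10 of 21 libraries, with H3K27me3 present in 18 of 20, and its window overlaps that of another gene, Gm9913. Dcn, the gene of the proteoglycan decorin, had H3K4me3 in 13 of 21 and no H3K27me3 peak. Lum, its neighbour of the same family, had H3K4me3 in 2 of 21 and no other peak. Mfap5, a microfibril gene of early progenitors, had H3K4me3 in 3 of 21 libraries, with H3K27me3 present in 7 of 20, and Postn, the periostin gene, in 12 of 21 and 3 of 20. Of the lysyl oxidases, which cross-link collagen, Lox had H3K4me3 in 18 of 21 libraries, with H3K27me3 present in 10 of 20, Loxl1 in 18 of 21 and 9 of 20, and Loxl2 in 6 of 21 and 11 of 20.

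Among transcription factors of the mesenchyme, Prrx1 (chr1:163245119-163313710) had H3K4me3 in 20 of 21 libraries, with H3K27me3 present in 20 of 20 libraries, and Twist1 in 21 of 21 and 14 of 20. Twist2 had H3K4me3 in 17 of 21 libraries, with H3K27me3 present in 7 of 20. Igfbp4 (chr11:99041244-99054392), a binding protein for insulin-like growth factors, had H3K4me3 and H3K27ac in 21 of 21 and H3K27me3 in 2 of 20, with a median widest H3K27ac peak of 8397 bp. Gas6, a ligand of TAM receptors, had H3K4me3 in 19 of 21, H3K27ac in 14 of 21 and H3K27me3 in 2 of 20.

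Of the contractile genes, Acta2, the smooth muscle actin gene, had H3K4me3 in 20 of 21 and H3K27ac in 15 of 21 libraries. Tagln, an actin-binding protein of smooth muscle, had H3K4me3 in 8 of 21 and H3K27ac in 15 of 21. Neither gene had an H3K27me3 peak in 20 libraries. Myh11 (chr16:14194535-14291372), the smooth muscle myosin heavy chain, had H3K4me1 in 17 of 22 and H3K4me3 in 10 of 21, with H3K27me3 in 6 of 20. Cnn1, the calponin gene, had H3K27me3 in 14 of 20 and no peak of any other mark. Des (chr1:75360329-75368579), a muscle intermediate filament, had H3K4me3 in 5 of 21 libraries, with H3K27me3 present in 8 of 20.

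Of the pericyte genes, Rgs5 (chr1:169655501-169695813), a regulator of G protein signalling and a classical pericyte marker, had H3K27me3 in 19 of 20 libraries and no peak of the other 3 marks. Abcc9 and Kcnj8, subunits of a potassium channel of vessels, had H3K27me3 in 15 of 20 each and H3K4me3 in 2 of 21 and 14 of 21. Notch3, a receptor of vascular smooth muscle, had H3K27me3 in 14 of 20, H3K4me3 in 10 of 21 and no H3K27ac peak. Cspg4, the NG2 proteoglycan, whose window overlaps that of Odf3l1, had H3K4me3 in 19 of 21, H3K4me1 in 21 of 22 and H3K27me3 in 11 of 20. Mcam (chr9:44134469-44142727), an adhesion protein of vessels, had H3K4me3 in 21 of 21, H3K27ac in 20 of 21 and H3K27me3 in 6 of 20.

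Sorted by combination of marks, 7 of 24 progenitor genes (29.2%) carried H3K4me3 and H3K27me3 each in most libraries, namely Pdgfra, Dpp4, Cd34, Fn1, Cd248, Twist1 and Prrx1. Of the mural genes 2 of 11 (18.2%) did, Cspg4 and Kcnj8, and of all genes 5.54%. H3K27me3 in most libraries with no H3K4me3 or H3K27ac peak in any was found at 2 of 11 mural genes (18.2%), Rgs5 and Cnn1, at 0 of 24 progenitor genes and at 3.62% of all genes. H3K4me3 in most libraries with no H3K27me3 peak was found at Dcn, Ly6a and Fap (12.5%) and at Acta2 (9.09%), against 35.7% of all genes.

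H3K4me3 and H3K27me3 could also be set side by side in 20 pairs of libraries with the same group and replicate number. The labels do not say that a pair came from 1 animal, and 4 of the pairs use an H3K4me3 library whose treatment field disagrees with its title. Prrx1 had both marks in 19 of 20 pairs, Pdgfra in 18, Dpp4 and Twist1 in 14, Cd34 in 13, and Fn1 and Kcnj8 in 11. The peaks of both marks shared bases at Prrx1 in 19 pairs, with a median of 2342 bp, at Pdgfra in 17, with a median of 2433 bp, and at Dpp4 in 11, with a median of 1282 bp. The mean share of genes with both marks in a pair was 32.3% for the progenitor list, 19.5% for the mural list and 7.76% for all genes. Both marks at a promoter in a pair cannot be placed in the same nuclei, since they were measured in separate libraries of many nuclei.

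**Figure D2:**
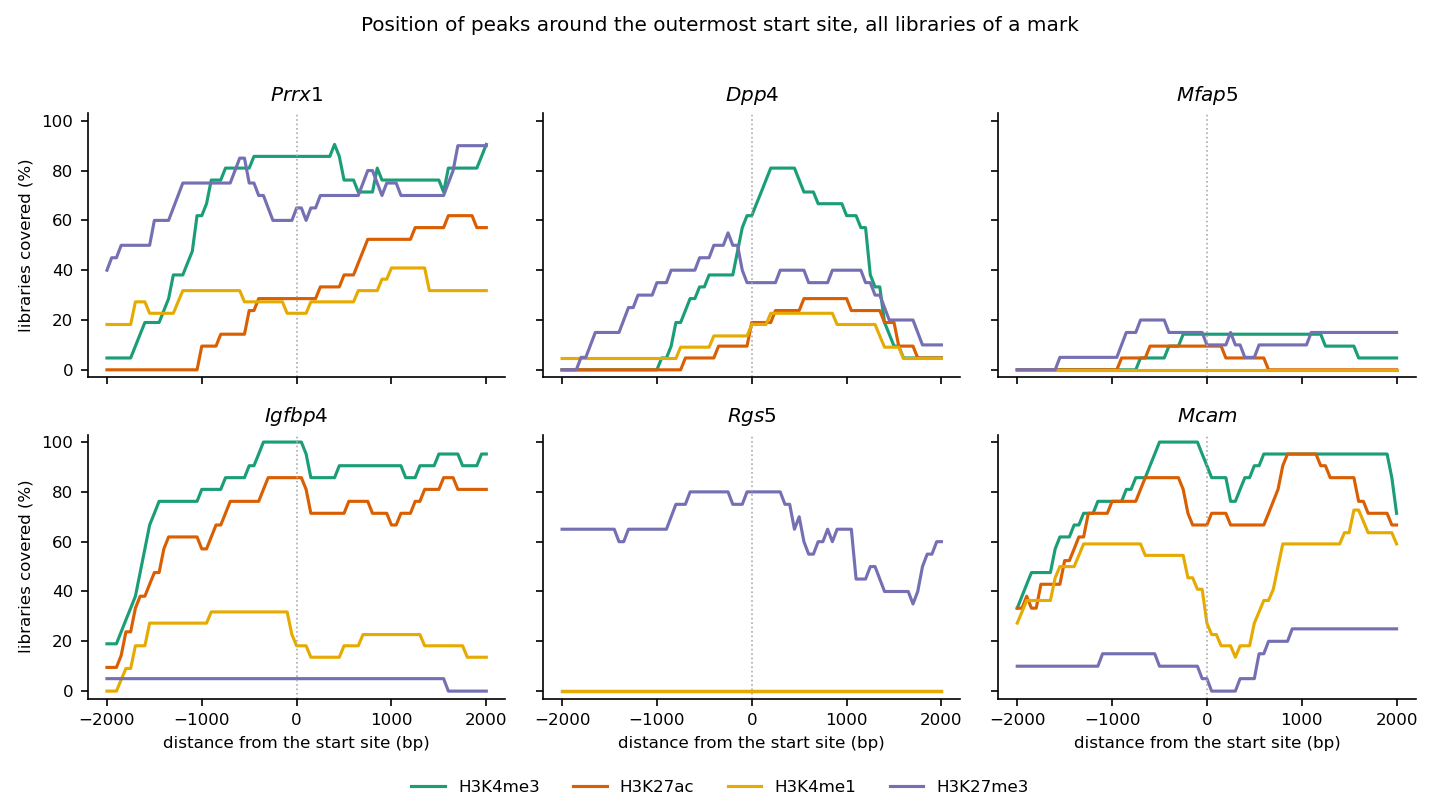
Share of all libraries of a mark (21 for H3K4me3 and H3K27ac, 22 for H3K4me1, 20 for H3K27me3) in which a peak covers each position from 2000 bp before to 2000 bp after the outermost start site of 6 genes. At Prrx1 both H3K4me3 and H3K27me3 cover the start in most libraries, at Rgs5 only H3K27me3 is present, and at Igfbp4 H3K4me3 covers the start in 21 of 21.

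The peaks lay at differing places around the start. At Prrx1 an H3K4me3 peak covered the outermost start site in 18 of 21 libraries and an H3K27me3 peak in 13 of 20. At Dpp4 the H3K4me3 count was highest, at 17 libraries, first at 200 and last at 450 bp downstream. H3K27me3 there was most frequent at 250 bp upstream, in 11. At Rgs5 the H3K27me3 count was highest, at 16 of 20 libraries, first at 650 bp upstream and last at 300 bp downstream. The stretch printed above lies between these positions. At Igfbp4 the H3K4me3 count was highest, at 21 of 21, first at 350 bp upstream and last at 50 bp downstream.

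CpG content, taken as the observed over expected count within 500 bp of the start sites, had a median of 0.478 in the progenitor genes and 0.365 in the mural genes, against 0.606 in all genes. Across the 35 genes the number of libraries with H3K27me3 went with CpG content with a Spearman rho of 0.442, whereas across all genes rho was -0.0728. For H3K4me3 the values were 0.368 and 0.730, and for H3K27ac 0.0474 and 0.591. These are descriptions across genes, which share libraries and are no replicates. Rgs5, with H3K27me3 in 19 of 20 libraries, had an observed over expected ratio of 0.330, and Ly6a, with H3K4me3 in 16 of 21, of 0.0875. Pdgfra, with 0.963, and Twist1, with 0.871, were the genes with the highest ratios.

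**Figure D3:**
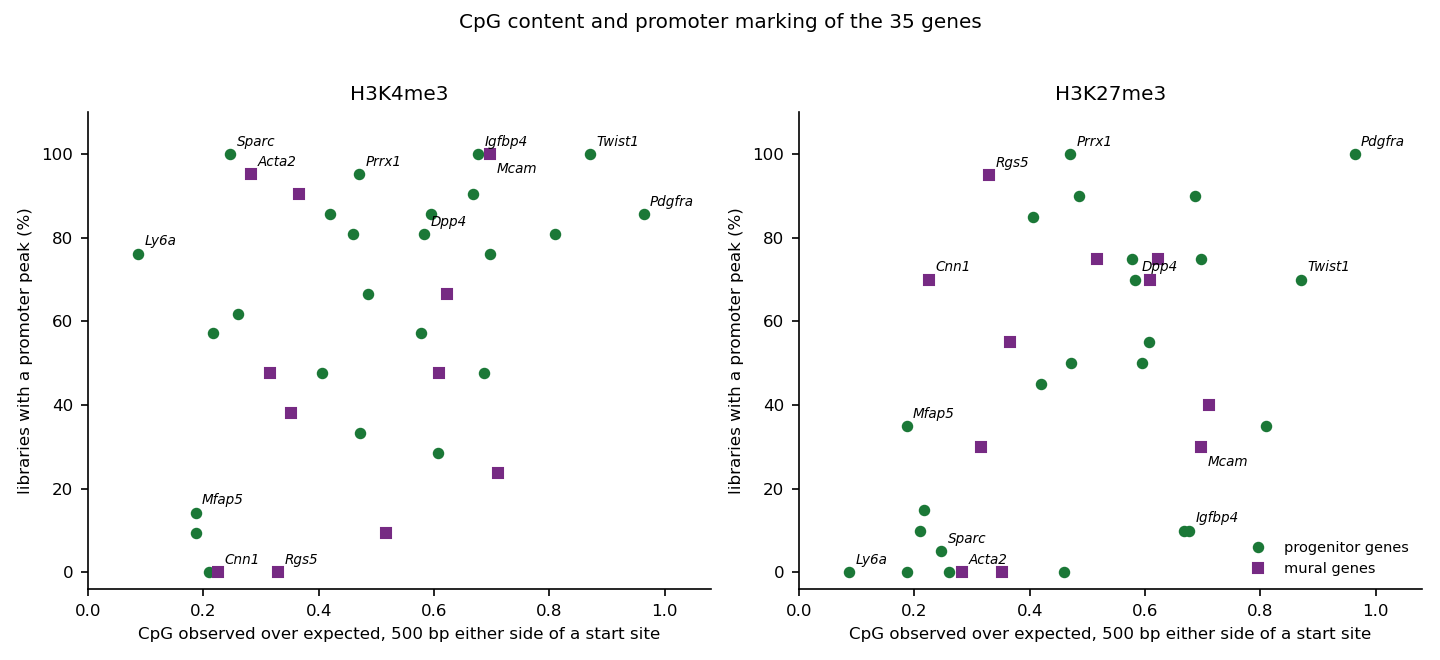
CpG observed over expected within 500 bp of the start sites (x axis) against the share of libraries with a promoter peak (y axis), for H3K4me3 (left, 21 libraries) and H3K27me3 (right, 20 libraries), 1 point per gene, circles for progenitor and squares for mural genes. Ly6a, Sparc and Acta2 combine low CpG content with frequent H3K4me3, and Rgs5 and Cnn1 combine it with frequent H3K27me3.

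The next question was whether these promoters differed between diet groups and their age-matched controls. Each gene's base pairs covered by peaks were compared with an exact permutation test, two-sided, with labels exchanged only within a cohort. Benjamini-Hochberg adjustment over the 21851 genes of a mark left 0 genes under 0.05 in each of the 8 comparisons (4 marks, obese and weight loss), and so no member was called in any of them. The smallest adjusted p over all genes was 0.379, for H3K27ac in obese mice. The exact permutation test can give no p below 0.0167, 0.01 or 0.005, depending on the comparison. Values are therefore given below for the genes at an unadjusted p under 0.05, beside the share of all genes that reached it, and for genes gained (marked in all libraries on the diet and in none of the controls) or lost (the reverse).

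Over the 35 genes the median obese difference was 0 bp for H3K4me3, H3K27ac and H3K4me1 and -38.5 bp for H3K27me3, beside -196, -301, 102 and 0 bp over all genes with a peak of the mark. The median weight-loss differences were 81.1, 121, 0 and 0 bp in the same order, beside 86.3, 332, 245 and 0 bp. The 35 genes include some without a peak of a mark. Over all genes, with or without a peak, the median obese differences were -6.75, 0, 0 and 0 bp, and each weight-loss median was 0 bp.

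The share of progenitor genes with H3K4me3 was 53.1% ± 19.6 (SD, n = 12) in the 12-week and 81.0% ± 9.80 (SD, n = 9) in the 25-week cohort. In C animals it was 69.4% ± 6.36 (SD, n = 3) and in H animals 48.6% ± 27.7 (SD, n = 3). H replicate 3, which had the fewest peaks of all libraries (11249), had 4 of 24 genes marked, and the other H libraries 15 and 16. After weight loss HC had 56.9% ± 14.6 (SD, n = 3), against 37.5% ± 16.7 (SD, n = 3) for CC_s. In the older cohort HH had 87.5% ± 5.89 (SD, n = 2) and its control CC_l 68.8% ± 2.95 (SD, n = 2), and HHC had 86.1% ± 10.5 (SD, n = 3) and its control CCC 79.2% ± 5.89 (SD, n = 2). Obese and control libraries overlapped in the 12-week cohort and did not in the 25-week cohort, where 20 and 22 of 24 genes were marked in HH and 16 and 17 in CC_l. Over all genes the H3K4me3 shares were apart in the same way, at 63.3% and 63.8% in HH and 62.8% in both CC_l libraries. The other differences went the same way over all genes as well. The all-gene mean was 58.7% in C and 50.7% in H, and 54.2% in HC and 49.9% in CC_s. It was 64.7% in HHC and 62.8% in CCC, and 53.3% in the 12-week and 63.6% in the 25-week cohort. With groups from the treatment field the progenitor counts overlapped, with 17 and 18 genes in HH and 16 and 20 in CC_l. Averaged over the cohorts, the obese difference was -1.04 percentage points and the weight-loss difference 13.2, beside a pooled SD of replicates of 14.6 and 12.6.

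Markers of other cells differed between diet groups as well, but not always in the direction of the progenitor genes. In H the mean macrophage and endothelial shares lay above those in C, with overlapping libraries, while the progenitor share lay below. H3K4me3 was present at 10 to 11 of 12 macrophage markers in HH and at 3 in CC_l, at 9 to 10 in HHC and 2 to 5 in CCC, at 0 to 9 in H and 3 to 4 in C, and at 1 to 6 in HC and 0 to 2 in CC_s. For the 12 endothelial markers the counts were 11 in HH and 4 to 9 in CC_l, 6 to 10 in HHC and 5 in CCC, 0 to 11 in H and 3 to 6 in C, and 2 to 9 in HC and 0 to 2 in CC_s. In CC_s the macrophage markers Ptprc, Adgre1, Lyz2 and Csf1r and the endothelial markers Pecam1, Cdh5 and Kdr were among the 10 of 12 in each list without a peak. Of 10 markers of the mesothelium, the lining of the fat pad, 0 had H3K4me3 in each H library and 2 to 4 in C. Their mean share was thus lower in H, as was that of the progenitor genes. The mesothelial counts were 4 to 5 in HH and 3 to 4 in CC_l, and 2 to 5 in HHC and 3 to 4 in CCC. They were 0 to 2 in HC and 0 to 1 in CC_s. The adipocyte markers stood at 11 to 15 of 15 in every H3K4me3 library. The part of other cells in the results on H3K4me3 below was not tested.

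**Figure D4:**
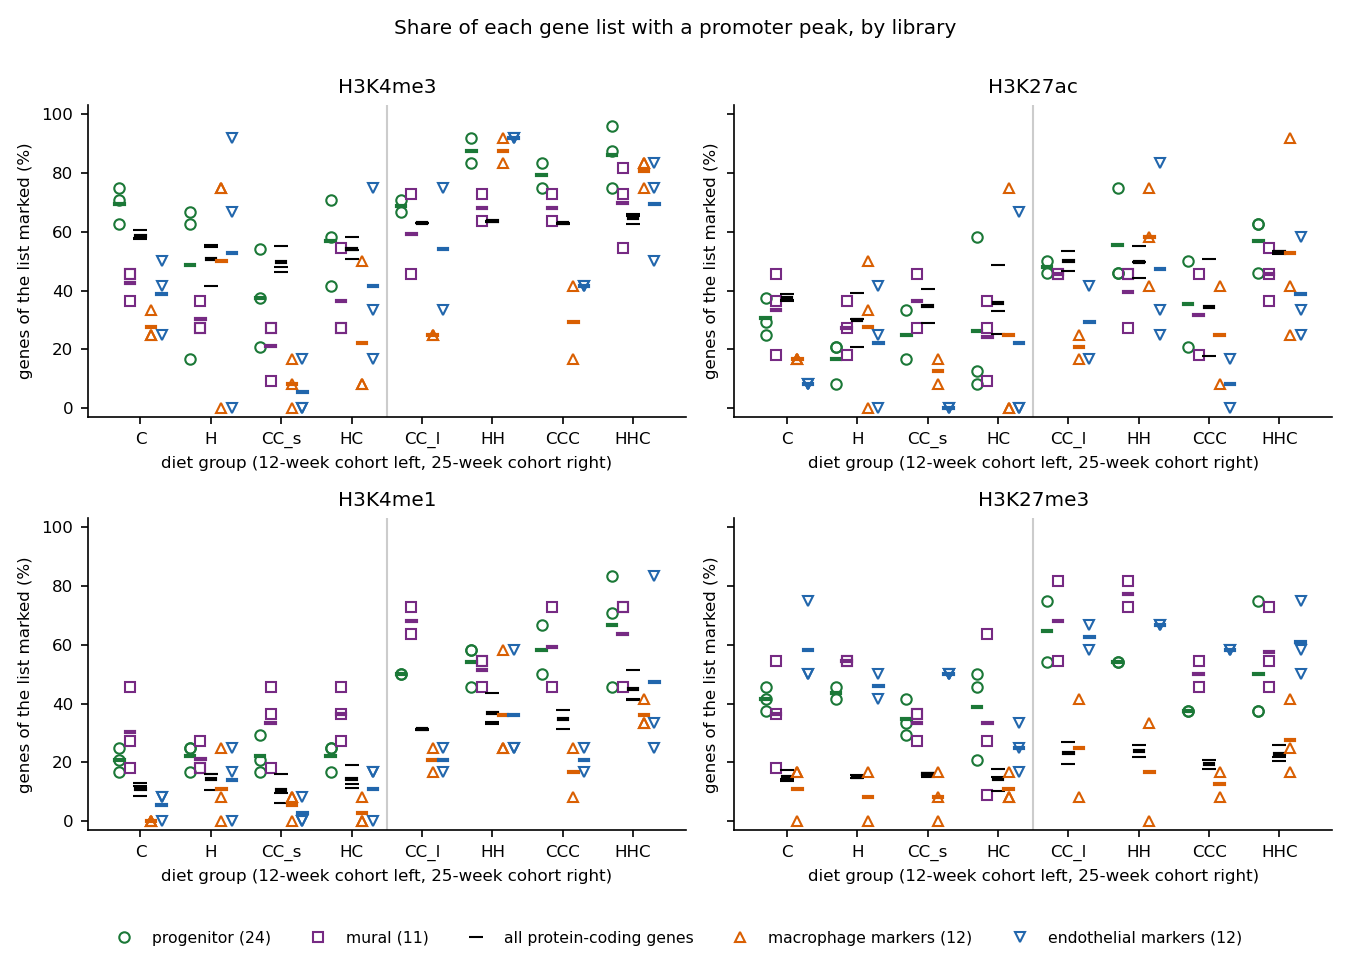
Share of each gene list with a promoter peak (y axis, percent) by diet group (x axis, 12-week cohort left and 25-week cohort right of the line), for the 4 marks, 1 symbol per library and bars at group means. For H3K4me3 the progenitor genes lay at 83.3% or above in HH, and the macrophage markers lay higher in HH and HHC than in CC_l and CCC.

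For the mural genes the mean H3K4me3 share of H libraries was 30.3% ± 5.25 (SD, n = 3), and that of their controls C was 42.4% ± 5.25 (SD, n = 3). HC had 36.4% ± 15.7 (SD, n = 3) and its control CC_s 21.2% ± 10.5 (SD, n = 3). HH and CCC both had 68.2% ± 6.43 (SD, n = 2), while CC_l had 59.1% ± 19.3 (SD, n = 2) and HHC 69.7% ± 13.9 (SD, n = 3). Differences averaged over the cohorts were -1.52 points in obese and 8.33 points in weight-loss mice, both smaller than the pooled SD of replicates (10.8 and 12.2). For the other marks, the averaged differences of both lists were at or within the SD of replicates too, with the exception of the mural genes for H3K4me1 in obese mice (-12.9 points, SD 8.50). There HH marked 51.5% ± 5.25 (SD, n = 3) and CC_l 68.2% ± 6.43 (SD, n = 2), with no overlap, while H and C overlapped. Over all genes the H3K4me1 share went the other way there, at 36.8% in HH and 31.3% in CC_l.

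H3K4me3 in obese mice gave 1 gene of the 35 at an unadjusted p under 0.05 (2.86%), and 2.55% of all genes were at that level. Of those 558 genes 556 were lower, while on within-library ranks 625 of 1387 were higher. The member was Prrx1, the mesenchymal homeobox factor. The base pairs covered at its windows were 2943, 3444 and 3190 in C and 1501, 2672 and 449 in H, and they were 3698 and 3416 in CC_l and 3359 and 3096 in HH. Every obese library lay below every age-matched control in both cohorts. The difference averaged -991 bp (exact permutation p = 0.0167, the smallest possible, adjusted p = 1.00). With groups taken from the treatment field, which disagrees with the titles for 4 H3K4me3 libraries, it was -732 bp (exact permutation p = 0.183), and on within-library ranks the exact permutation p was 0.05. Leaving out 1 library at a time kept it under 0.05 in 7 of 10 omissions, and windows of 500 bp gave an exact permutation p of 0.4.

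Loxl1 (chr9:58287738-58313186), a lysyl oxidase of elastic fibres, was the member that lost H3K4me3 in H, 1 of 35 (2.86%) beside 1.71% of all genes gained or lost. Of those genes 373 lost the mark in H and 1 gained it. Its windows were covered over 2031, 4001 and 4001 bp in C and 0, 0 and 0 bp in H. In the 25-week cohort it was covered over 2257 and 4001 bp in CC_l and 3468 and 3570 bp in HH, so that the groups overlapped. In HH, Thy1 and Des gained H3K4me3, 2 of 35 (5.71%) beside 1.80% of all genes. Thy1 (chr9:44043384-44048579) was covered over 2323 and 1088 bp in HH and 0 bp in both CC_l libraries, and Des over 842 and 1219 bp in HH and 0 bp in both CC_l libraries. Both genes were at 0 bp in all C and H libraries. With groups from the treatment field neither was gained, since Thy1 then stood at 0 and 0 bp in HH and 0 and 1088 bp in CC_l, and Des at 0 and 706 bp in HH and 0 and 1219 bp in CC_l. Des is the mural gene shown above with 10 CG dinucleotides upstream of its start.

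The mean obese H3K4me3 difference had opposite signs in the cohorts at some members. An exact permutation p was computed for the difference between the cohorts, with labels exchanged only within a cohort. A low p can thus come from either cohort alone and does not test whether the cohorts differ. This p was under 0.05, unadjusted, at 5 of the 35 genes, which were Dpp4, Sparc, Igfbp4, Cspg4 and Kcnj8. It was also under 0.05 at 16.4% of all genes, with 0 genes after adjustment (smallest adjusted p = 0.173, exact permutation test). At Igfbp4, H3K4me3 covered 6084, 7013 and 5869 bp in C against 3853, 1004 and 579 bp in H, but 7343 and 7565 bp in CC_l against 7975 and 7844 bp in HH. The window of Igfbp4 holds 8002 bp, so the libraries of the 25-week cohort were close to its full length. Sparc was covered over 3284, 4818 and 3795 bp in C and 2775, 2623 and 2542 bp in H, and over 3934 and 4587 bp in CC_l and 4665 and 5900 bp in HH. At both genes every H library was below C and every HH library above CC_l, as at 9.63% of all genes. With groups from the treatment field HH and CC_l overlapped at both, with 7565 and 7722 bp in HH and 7343 and 7844 bp in CC_l at Igfbp4, and 4587 and 5587 bp in HH and 3934 and 5900 bp in CC_l at Sparc.

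After weight loss, H3K4me3 gave 2 of 35 genes (5.71%) at an unadjusted p under 0.05, Dpp4 and Ly6a, beside 3.13% of all genes. At Dpp4 the covered base pairs were 727, 282 and 1095 in HC and 0, 0 and 0 in CC_s, and 2445, 2702 and 2207 in HHC and 1416 and 1982 in CCC. All weight-loss libraries lay above their controls in both cohorts. The mean difference was 727 bp (exact permutation p = 0.005, the smallest possible, adjusted p = 1.00), and leaving out any library gave an exact permutation p between 0.01 and 0.025. It was 659 bp with the groups of the treatment field (exact permutation p = 0.01), and the within-library ranks gave an exact permutation p of 0.015. With only the stronger part of each peak list the exact permutation p was 0.05 (913 bp), and with equal numbers of peaks in all libraries it was 0.5 (590 bp). C libraries, the younger controls, were covered over 1659, 1225 and 1843 bp at Dpp4, so the 0 bp of CC_s was not shared by all chow-fed animals of that cohort.

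Ly6a was covered over 923, 0 and 3265 bp in HC against 0 bp in all CC_s libraries, and over 4398, 4387 and 4398 bp in HHC against 1549 and 1167 bp in CCC. The groups overlapped in the 12-week and not in the 25-week cohort, and the difference averaged 2216 bp (exact permutation p = 0.02, adjusted p = 1.00). With the groups of the treatment field it was 1408 bp (exact permutation p = 0.08). Only 6 of 11 omissions of 1 library left the exact permutation p under 0.05. The number of members with a changed presence was 1 of 35 (2.86%) in HC, where Dpp4 gained H3K4me3, beside 0.339% of all genes. In HHC it was 1 of 35 (2.86%), where Mfap5 (chr6:122505845-122529290) gained it, beside 1.76% of all genes. Mfap5 was covered over 1504, 2275 and 2496 bp in HHC and over 0 bp in all other H3K4me3 libraries, obese ones included. Thy1, covered over 3832, 2395 and 4287 bp in HHC and 949 and 0 bp in CCC, stood at an exact permutation p of 0.05 over both cohorts.

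**Figure D5:**
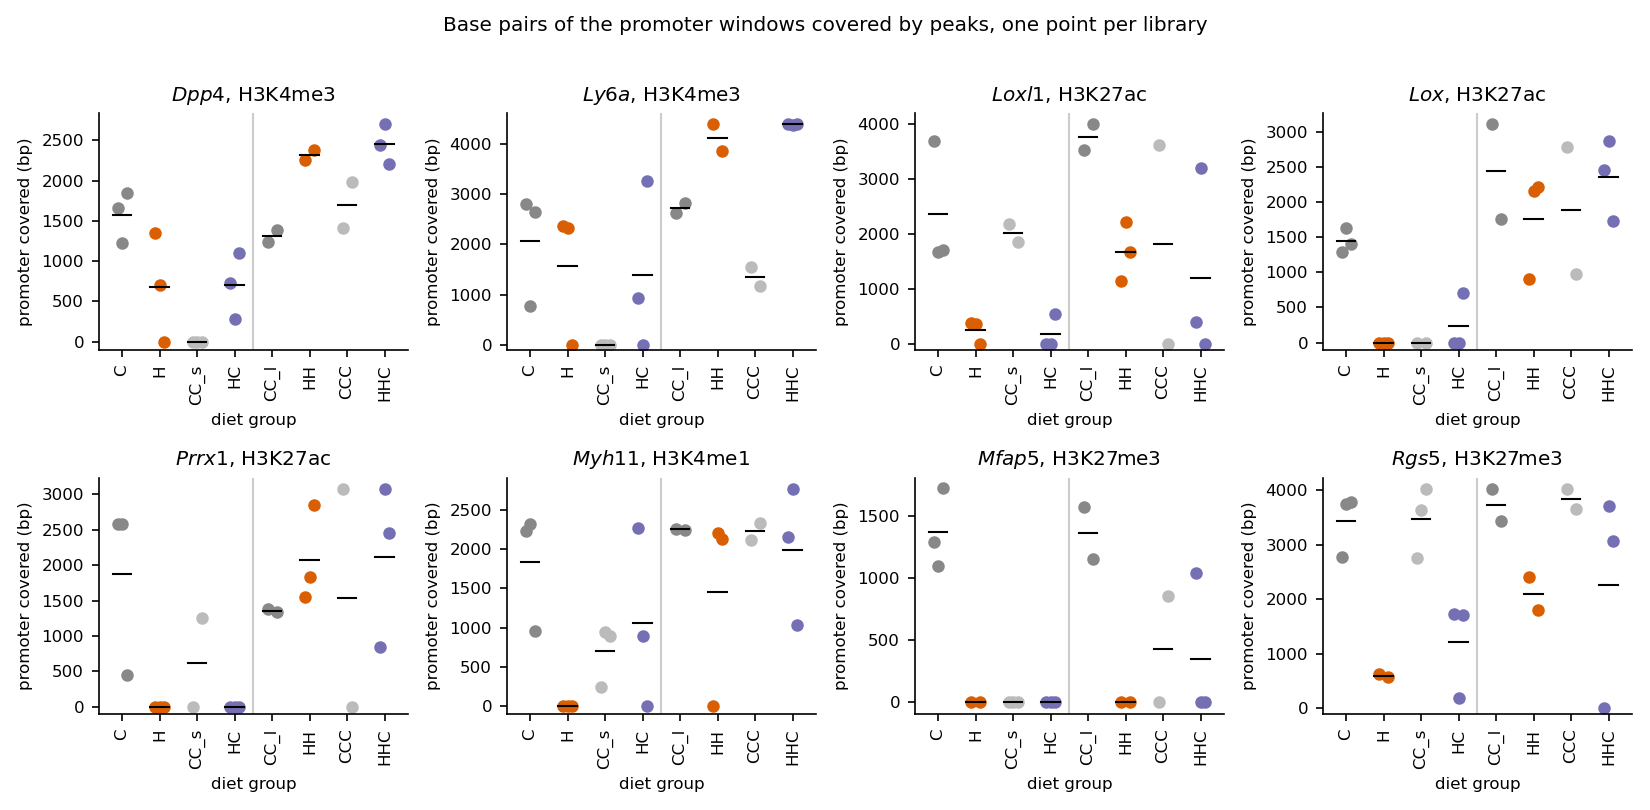
Base pairs of the promoter windows covered by peaks (y axis) by diet group (x axis, 12-week cohort left and 25-week cohort right of the line) for 8 pairs of gene and mark, 1 point per library and a bar at the group mean. Dpp4 H3K4me3 lay higher in HC and HHC than in their controls, Loxl1 H3K27ac and Rgs5 H3K27me3 lay lower in H and HH than in theirs, and Mfap5 H3K27me3 was at 0 bp in H and HH.

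H3K27ac in obese mice was the comparison with most members at an unadjusted p under 0.05, 5 of 35 (14.3%), beside 9.55% of all genes. All 5 were lower, as were 2010 of the 2086 genes at that level, among them 7 of the 15 adipocyte markers, including Lep, Pparg, Lpl and Slc2a4. The median difference over all genes with a peak was -301 bp, and the median widest promoter peak over all genes was 1679 bp ± 179 (SD, n = 3) in C and 673 bp ± 184 (SD, n = 3) in H. Ranked within each library, 723 of 1367 genes at that level were lower and 3 of the 35 members were at it. The H libraries thus had narrower H3K27ac peaks in general, and the part of this narrowing in the values of the members was not tested. H3K27ac was present at 0 to 6 macrophage markers in H and 2 in C, and at 5 to 9 in HH and 2 to 3 in CC_l.

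Loxl1 was covered by H3K27ac over 3704, 1677 and 1722 bp in C and 390, 372 and 0 bp in H, and over 3532 and 4001 bp in CC_l and 1154, 2217 and 1683 bp in HH. No obese library reached its controls in either cohort. The mean difference was -2098 bp (exact permutation p = 0.005, the smallest possible, adjusted p = 0.379). On within-library ranks the exact permutation p was again 0.005, and leaving out any library gave values between 0.01 and 0.0167. Lox, which cross-links collagen and elastin, was covered over 1291, 1626 and 1398 bp in C and 0 bp in all H libraries, and over 3106 and 1764 bp in CC_l and 909, 2152 and 2213 bp in HH. Its mean difference of -1058 bp (exact permutation p = 0.03, adjusted p = 0.436) came with overlapping groups in the 25-week cohort. It kept an exact permutation p under 0.05 in 5 of 11 omissions of 1 library, and the value was 0.7 with the stronger part of each peak list and 0.2 with equal numbers of peaks.

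Igfbp4 was covered by H3K27ac over 6481, 6763 and 6331 bp in C and 4518, 1459 and 2075 bp in H. In the 25-week cohort it was covered over 7822 and 7720 bp in CC_l and 6736, 7540 and 7705 bp in HH. The groups did not overlap, but the gap in the 25-week cohort was small (mean difference over both cohorts -2142 bp, exact permutation p = 0.02, adjusted p = 0.392). Sparc and Mcam were likewise lower in H than in C with no overlap. Sparc was covered over 6250, 5776 and 5039 bp in C and 2609, 1853 and 3278 bp in H, and over 6991 and 7286 bp in CC_l and 4725, 7286 and 6360 bp in HH. Mcam was covered over 3102, 3874 and 3517 bp in C and 581, 940 and 1005 bp in H, and over 3874 and 4097 bp in CC_l and 3150, 4097 and 4039 bp in HH. Both overlapped in the 25-week cohort (averaged differences -2062 and -1440 bp, exact permutation p = 0.025 and 0.045, adjusted p = 0.416 and 0.450). On within-library ranks the exact permutation p was 0.1 for Igfbp4, 0.16 for Sparc and 0.225 for Mcam. Of 11 omissions of 1 library, 8 left it under 0.05 for Igfbp4, 8 for Sparc and 2 for Mcam.

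Lox and Prrx1 were the members that lost H3K27ac in H, 2 of 35 (5.71%) beside 2.08% of all genes. Prrx1 was covered over 2583, 2582 and 446 bp in C and 0 bp in all H libraries. In the 25-week cohort the order was the opposite, with 1557, 1827 and 2845 bp in HH and 1377 and 1336 bp in CC_l. In HH 1 of 35 members (2.86%) lost H3K27ac, beside 0.851% of all genes. It was Myh11, with 2184 and 2451 bp in CC_l and 0 bp in all HH libraries. In the 12-week cohort Myh11 had a peak in only 1 of 3 C libraries.

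After weight loss 0 of the 35 members had an unadjusted p under 0.05 for H3K27ac, beside 1.21% of all genes. In HC, Gas6 lost H3K27ac, 1 of 35 (2.86%) beside 0.796% of all genes, with 805 and 769 bp in CC_s and 0 bp in all HC libraries. The median widest H3K27ac promoter peak over all genes was 848 bp ± 198 (SD, n = 3) in HC and 1400 bp ± 251 (SD, n = 2) in CC_s. The part of this narrowing in the values of Gas6 was not tested. In HHC, Dpp4 gained H3K27ac, 1 of 35 (2.86%) beside 2.38% of all genes. Dpp4 was covered by H3K27ac over 2710, 1402 and 1900 bp in HHC and 0 bp in both CCC libraries, and over 0, 0 and 758 bp in HC and 0 bp in both CC_s libraries (exact permutation p = 0.06 over both cohorts, adjusted p = 1.00). Ly6a was covered by H3K27ac over 4398 bp in 3 of 3 HHC libraries and over 2301 and 0 bp in CCC (exact permutation p = 0.06 over both cohorts). CCC replicate 3 had 14917 peaks, the fewest of the 25-week H3K27ac libraries. H3K27ac was present at 3 to 11 of the 12 macrophage markers in HHC and at 1 to 5 in CCC, and at 3 to 7 and 0 to 2 of the 12 endothelial markers. The part of these differences in the values of Dpp4 and Ly6a was not tested.

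H3K4me1 in obese mice gave 1 of 35 members (2.86%) at an unadjusted p under 0.05, Myh11, beside 2.08% of all genes. Its windows were covered over 2230, 2323 and 957 bp in C and 0 bp in all H libraries, and over 2261 and 2245 bp in CC_l and 0, 2208 and 2133 bp in HH. All obese libraries lay below their controls, although the gap in the 25-week cohort rested mostly on 1 HH library (mean difference -1321 bp, exact permutation p = 0.025, adjusted p = 1.00). That library, HH replicate 1, had H3K4me1 at 6 of the 15 adipocyte markers, and the other HH libraries at 13 and 15. The part of this in the values of Myh11 was not tested. The exact permutation p stayed under 0.05 in 6 of 11 omissions of 1 library. Myh11 was the only member that lost H3K4me1 in H, 1 of 35 (2.86%) beside 0.911% of all genes. In HH 0 of 35 were gained or lost, beside 2.70% of all genes.

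After weight loss 1 of 35 members (2.86%) had an unadjusted p under 0.05 for H3K4me1, beside 1.16% of all genes. This was Ly6a, covered over 2209, 0 and 1270 bp in HC against 0 bp in all CC_s libraries and over 4398 bp in 3 of 3 HHC libraries against 3401 and 2831 bp in CCC. The mean difference was 1221 bp (exact permutation p = 0.02, adjusted p = 1.00), and on within-library ranks the exact permutation p was 0.05. In 3 of 11 omissions of 1 library the exact permutation p was under 0.05. Ly6a was thus at the whole length of its window for H3K4me1 and H3K27ac in each HHC library. H3K4me1 was present at 4 to 5 of the 12 macrophage markers in HHC and at 1 to 3 in CCC. For the 12 endothelial markers the counts were 3 to 10 in HHC and 2 to 3 in CCC. The part of either list in the values of Ly6a was not tested. In HC 0 of 35 members gained or lost H3K4me1, beside 0.316% of all genes. In HHC 1 of 35 (2.86%) did, beside 4.47% of all genes. It was Cd248, covered over 1433, 1375 and 1480 bp in HHC and 0 bp in both CCC libraries, and at 0 bp in all 12-week libraries.

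H3K27me3 in obese mice gave 2 of 35 members (5.71%) at an unadjusted p under 0.05, beside 2.65% of all genes, and both were lower, as were 512 of the 580 genes at that level and 426 of 616 on within-library ranks. At Rgs5, the pericyte gene whose upstream stretch is printed above, H3K27me3 covered 2770, 3734 and 3770 bp in C and 623 and 578 bp in H. It covered 4022 and 3425 bp in CC_l and 2402 and 1803 bp in HH. Every obese library was below its controls in both cohorts, though each still had a peak (mean difference -2223 bp, exact permutation p = 0.0167, the smallest possible, adjusted p = 1.00). Over all genes the median widest H3K27me3 promoter peak was 2081 bp ± 125 (SD, n = 3) in C and 756 bp ± 40.3 (SD, n = 2) in H, so H peaks were narrower in general. On within-library ranks the exact permutation p for Rgs5 was 0.0167 as well, and 6 of 9 omissions of 1 library left the unranked value under 0.05. The omissions of a C library gave an exact permutation p of 0.0556, the smallest then possible, and so could not stay under 0.05.

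Mfap5 was covered by H3K27me3 over 1289, 1099 and 1723 bp in C and 0 bp in both H libraries, and over 1575 and 1152 bp in CC_l and 0 bp in both HH libraries (mean difference -1367 bp, exact permutation p = 0.0167, the smallest possible, adjusted p = 1.00). It was thereby lost in both cohorts. Omissions of 1 library left the exact permutation p under 0.05 in 6 of 9 cases, while the stronger part of each peak list and equal numbers of peaks each gave 0.5. As for Rgs5, the omissions of a C library gave an exact permutation p of 0.0556, the smallest then possible. The older controls were at 0 bp in all CC_s libraries and at 0 and 857 bp in CCC, so the mark also differed between chow-fed groups. The gained or lost members in H were 4 of 35 (11.4%), beside 2.90% of all genes. Besides Mfap5 these were Thy1, Lox and Cspg4, which gained the mark. Thy1 was covered over 904 and 703 bp, Lox over 1196 and 1921 bp and Cspg4 over 454 and 547 bp in H, and all 3 were at 0 bp in the C libraries. In the 25-week cohort H3K27me3 was present at these 3 genes in both groups, apart from Lox in 1 CC_l library. In HH 1 of 35 (2.86%) was gained or lost, which was Mfap5, beside 1.99% of all genes.

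After weight loss 1 of 35 members (2.86%) had an unadjusted p under 0.05 for H3K27me3, beside 3.87% of all genes, where 716 of 846 genes were lower. It was again Rgs5, covered over 1727, 187 and 1716 bp in HC against 2759, 3640 and 4022 bp in CC_s, and over 0, 3704 and 3062 bp in HHC against 4022 and 3642 bp in CCC. The groups overlapped in the 25-week cohort (mean difference -1920 bp, exact permutation p = 0.025, adjusted p = 0.923), and on within-library ranks the exact permutation p was 0.405. Of 11 omissions of 1 library 8 left the unranked value under 0.05. Endothelial markers with H3K27me3 numbered 2 to 4 of 12 in HC and 6 in each CC_s library, and the median widest H3K27me3 peak over all genes was 868 bp ± 394 (SD, n = 3) in HC and 1780 bp ± 120 (SD, n = 3) in CC_s. The part of either in the values of Rgs5 was not tested. In HC the member gained was Dpp4, 1 of 35 (2.86%) beside 0.993% of all genes, with 845, 80 and 779 bp against 0 bp in all CC_s libraries. It rests on the 80 bp of 1 library, and with at least 200 bp required 0 of 35 members were gained or lost for H3K27me3 after weight loss. At any overlap, Dpp4 thus had both H3K4me3 and H3K27me3 in every HC library and neither in any CC_s library. In HHC 0 of 35 were gained or lost, beside 2.10% of all genes.

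Further genes of these lineages were counted in the same tests, 30 other progenitor genes and 25 other mural genes. For H3K27ac in obese mice 4 of the 30 were at an unadjusted p under 0.05, namely Gsn, Cd55, Bmper and Ebf2, and 4 of the 25, namely Higd1b, Ednra, Aoc3 and Angpt1, all lower, as were 2010 of the 2086 genes at that level (9.55% of all genes). For H3K27me3 in obese mice they were Fbln2, Dact2, Wnt2 and Meox1 among the 30 and Tbx18, a transcription factor of mural cells, among the 25, again all lower, beside 2.65% of all genes. After weight loss, H3K27me3 was higher at Ebf2 and lower at Fbln2, Efhd1, Wnt2, Osr1 and Meox2 among the 30, and lower at Tbx18 among the 25, at that level, beside 3.87% of all genes. For H3K4me3, Angpt1 was lower in obese mice and Anxa3 higher after weight loss, beside 2.55% and 3.13% of all genes. For H3K4me1, Creb5 was higher in obese mice and Higd1b lower after weight loss, beside 2.08% and 1.16%. The remaining one was F3, lower for H3K27ac after weight loss, beside 1.21%. None of these passed adjustment over all genes.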

How the data were processed

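CUT&Tag libraries of 4 histone marks were deposited as 1 peak list per library, 84 in all, with replicates not pooled. Per the sources, the authors trimmed reads with Trim Galore 0.6.6, aligned them to the mouse genome GRCm38 (mm10) with Bowtie2 2.4.4, used SAMtools 1.13 and bedtools 2.30, and called peaks with SEACR 1.3 in its stringent mode at a threshold of 0.01, which keeps the strongest share of signal blocks. The deposited values are the total and maximum coverage signal of each peak, as whole numbers that were not scaled between libraries, so signal was not compared. The number of peaks limits what can be seen, and read depth is not given in the sources used here.

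The promoter of a gene reached 2000 bp up- and downstream of each of its start sites, 41438 in all for 21851 protein-coding genes (GENCODE, GRCm38). A gene was marked when a peak overlapped its windows by at least 1 bp, and the base pairs covered were summed. Work was done in Python 3.11.15 with NumPy 2.4.6, pandas 2.3.3 and SciPy 1.17.1. Each gene was tested with an exact two-sided permutation test of covered base pairs, with labels exchanged within a cohort and the difference averaged over both cohorts, and p-values were adjusted by Benjamini-Hochberg over all genes of a mark. The test was tried on simulated data with normal noise and changes of 2000 bp. That setting lacks the many zeros of these data, so it does not show how the test behaves on them. Named genes were the members at an unadjusted p under 0.05 and those gained or lost. The members and lists were chosen with earlier results of these data known. Nothing in the labels says more about replicates than that they are separate samples of a group. Alternatives were windows of 500 bp, an overlap of at least 200 bp, the stronger part of each peak list, equal numbers of peaks, groups by the treatment field, a replicate block, leaving out each library, and, added after seeing the data, ranks within a library.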

Additional observations from a re-analysis of the deposited data

Results flagged for a closer look

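Among the 35 genes, 3 pairs of gene and mark had obese libraries that lay wholly on one side of their controls in the 12-week cohort and wholly on the other side in the 25-week cohort. This held at 9.63% of all genes for H3K4me3 and 1.75% for H3K27ac, in every case lower in the 12-week and higher in the 25-week cohort. H3K4me3 at Sparc differed by a mean of -1319 bp of covered promoter between H and C and by 1022 bp between HH and CC_l. At Igfbp4 the H3K4me3 differences were -4510 bp and 456 bp. H3K27ac at Prrx1 differed by -1870 bp in the 12-week cohort and 720 bp in the 25-week cohort. The difference between the cohorts had an exact permutation p of 0.0167 for Sparc and Igfbp4 (the smallest possible for H3K4me3) and 0.01 for Prrx1. It was under 0.05 at 16.4% and 6.14% of all genes in these marks, and did not hold after adjustment over all genes (smallest adjusted p of any gene 0.173 for H3K4me3 and 0.584 for H3K27ac). Labels were exchanged within each cohort, so a low p can come from 1 cohort alone and does not test whether the cohorts differ. With groups from the treatment field, HH and CC_l overlapped at Sparc and at Igfbp4. Cohort, age, length of diet and library preparation cannot be told apart.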

How the results depend on the processing

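For the 13 pairs of gene, mark and comparison at an unadjusted exact permutation p under 0.05, 219 alternative values were computed, of which 131 stayed under 0.05, 88 did not and 0 changed sign. The 88 include values that could not fall under 0.05. These are the 13 of the replicate block and those for H3K27me3 in obese mice without a C library. The 500 bp windows kept 5 of 13 under it, the overlap of 200 bp 13, equal numbers of peaks 9, the stronger part of each peak list 9, the treatment field 1 of 3, ranks 7, and leaving out a library 87 of 138. The number of members under 0.05 was as follows. With 500 bp windows it was 0 (H3K4me3 obese), 1 (H3K27ac obese), 0 (H3K4me1 weight loss) and 0 (H3K27me3 weight loss). With the stronger part of each peak list it was 0 (H3K4me3 weight loss), 2 (H3K4me1 obese) and 2 (H3K27me3 weight loss), and with equal peaks 0, 2 and 2 for the same and 1 for H3K27me3 obese. With the treatment field it was 0 in obese and 1 in weight-loss mice for H3K4me3. Ranks within a library, added after seeing the data, gave 6 and 4 for H3K4me3 obese and weight loss, 3 and 2 for H3K27ac, 4 for H3K4me1 obese, and 5 and 2 for H3K27me3. Members gained or lost numbered 1 (H3K27ac weight loss), 0 (H3K4me1 obese) and 2 (H3K27me3 weight loss) with 500 bp windows, and 0 (H3K27me3 weight loss) with the overlap of 200 bp. With the stronger part of each peak list they numbered 8 (H3K4me3 obese), 5 and 1 (H3K27ac obese and weight loss), 2 and 0 (H3K4me1) and 3 (H3K27me3 obese). With equal peaks they numbered 1 (H3K4me3 weight loss), 4 and 0 (H3K4me1) and 3 (H3K27me3 obese), and with the treatment field 1 (H3K4me3 obese). The cause of these shifts was not tested.

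Leaving out 1 library gave between 0 and 5 members under 0.05 for H3K4me3 obese and 1 to 5 for weight loss, 2 to 5 and 0 to 1 for H3K27ac, 0 to 2 and 0 to 1 for H3K4me1, and 0 to 3 and 0 to 3 for H3K27me3. For H3K27me3 in obese mice the exact permutation test can give no p below 0.0556 without a C library. Members gained or lost ranged from 3 to 7 and 2 to 4 for H3K4me3, 3 to 5 and 2 to 8 for H3K27ac, 1 to 4 and 1 to 5 for H3K4me1, and 5 to 9 and 1 to 4 for H3K27me3. The highest were 7 without CC_l replicate 2 (H3K4me3 obese), 8 without CCC replicate 1 (H3K27ac weight loss), 4 without CC_l replicate 1 and 5 without HHC replicate 2 (H3K4me1), and 9 without CC_l replicate 1 (H3K27me3 obese). Replicate numbers were not used to pair the samples in the main test. The 36 same-number pairs had correlations between -0.511 and 0.318, and 0 of the 6 comparisons with 3 pairs had every pair over 0.1. With so few pairs per comparison, these values cannot show whether the samples were paired. With the replicate block, whose smallest possible p lies between 0.0625 and 0.25, 0 members were under 0.05 for H3K4me3, H3K4me1 and H3K27me3 in both comparisons and for H3K27ac in obese mice. The share of mural genes with H3K27me3 in obese mice differed by 27.3 points with the block and 13.6 without it.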

Other observations

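The 30 other progenitor genes carried H3K27me3 more often than the 24 described above, in 61.8% ± 12.6 (SD, n = 20) of cases per library, and the 25 other mural genes in 43.8% ± 15.3 (SD, n = 20). H3K4me3 was present at 8 to 30 of the 30 and at 5 to 22 of the 25 in the 21 libraries of that mark. Markers of the mesothelium, the lining of the fat pad, had H3K27me3 at 64.0% of their promoters on average and H3K27ac at 3.33%, with no H3K27ac peak at any of the 10 in the 12-week cohort. Endothelial markers had H3K27me3 at 52.5% on average, macrophage markers at 15.0% and adipocyte markers at 17.3%.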
